A study of Mus musculus with 8 samples.

Results

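A group of 58 genes of mitosis was followed here: the genes of the kinetochore, of the spindle checkpoint that reads it, of the kinases and proteases that act on it, and of the condensin machinery that packs the chromosome. The members were taken by gene symbol from the count table of each brain, by their role in mitosis. All 58 were found among 54752 gene identifiers, and all 58 passed the filter on low counts that left 17865 genes for testing. The lowest raw count of any member in any brain was 57, for Cenpp.

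RNA-seq was performed on whole brains of wild type mouse fetuses at E15.5 (C57BL/6 in the labels, C57BL/6Slac in the study's methods). The control group held 4 brains (2 female, F36 and F37, and 2 male, M30 and M31) of a dam that was not stressed. The stress group held 4 brains (2 female, F34 and F35, and 2 male, M28 and M29) of a dam that was put through chronic unpredictable mild stress (CUMS), a changing series of mild stressors, while pregnant. Each group came from 1 litter, so litter and stress cannot be told apart, and p-values measure the spread between littermates. No agent or transgene was used, and both groups share strain, age and tissue. Libraries held between 25320109 and 29105710 counts per brain. In whole tissue, more dividing cells and more RNA per dividing cell cannot be told apart.

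The kinetochore is the protein plate that is built on the centromere of each chromosome and holds it to the spindle. Its inner layer, the CENP proteins, sits on centromeric chromatin, and its outer layer grips microtubules. The spindle checkpoint holds back the anaphase-promoting complex until every kinetochore is attached. Transcripts of most of these genes rise in late G2 and mitosis, and in the fetal brain they mark the progenitors of the ventricular and subventricular zones, since neurons no longer divide. Many such genes carry in their promoters a cell cycle genes homology region (CHR, TTTGAA or TTCGAA), which the DREAM and MuvB complexes bind, and CCAAT boxes, which NF-Y binds.

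To show what such words look like in place, 6 stretches of 100 bases that end just before the RefSeq start site are printed, on build GRCm38.p6 and on the strand of the gene. They were picked for a CHR within the stretch, apart from Zwint, which was added without one. The stretches therefore do not show how often a CHR occurs. Capitals mark each CHR or CCAAT word on either strand, so that a CHR can read TTCAAA and a CCAAT box ATTGG. The first 4 belong to genes that rose after stress, and the last pair to genes that did not pass the test. All are promoter sequence, though up to 30 bases at the end may lie inside a longer annotated transcript.
Top2a (chr11:99024190-99024289, minus strand): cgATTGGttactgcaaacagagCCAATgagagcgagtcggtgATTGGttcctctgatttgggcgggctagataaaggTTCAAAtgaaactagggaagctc
Cdc20 (chr4:118437344-118437443, minus strand): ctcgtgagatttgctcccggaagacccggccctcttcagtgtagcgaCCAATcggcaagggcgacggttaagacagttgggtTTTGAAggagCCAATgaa
Prc1 (chr7:80294376-80294475, plus strand): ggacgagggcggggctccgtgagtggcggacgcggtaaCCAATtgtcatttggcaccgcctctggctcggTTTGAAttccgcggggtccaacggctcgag
Mki67 (chr7:135716380-135716479, minus strand): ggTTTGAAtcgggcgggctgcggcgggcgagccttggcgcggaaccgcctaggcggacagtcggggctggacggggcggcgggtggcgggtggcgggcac
Cenpw (chr10:30200541-30200640, minus strand): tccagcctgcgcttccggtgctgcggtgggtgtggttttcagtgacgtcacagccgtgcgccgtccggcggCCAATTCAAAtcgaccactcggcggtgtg
Zwint (chr10:72654746-72654845, plus strand): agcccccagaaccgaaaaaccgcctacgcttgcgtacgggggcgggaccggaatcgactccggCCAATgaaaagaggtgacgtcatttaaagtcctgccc
Top2a holds 1 CHR and 3 CCAAT words in this stretch, and Cdc20 holds 1 and 2. The Zwint stretch holds a CCAAT box and no CHR, while in Cenpw the CHR overlaps the CCAAT box. Shares over all members are given after the expression values.

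To ask whether the mitotic genes differed between stressed and control brains, counts were compared with edgeR's quasi-likelihood test, with sex in the model and Benjamini-Hochberg adjustment over all genes tested. Of the 58 genes, 40 were higher in the stress group, 0 were lower and 18 did not pass the threshold of an adjusted p of 0.05. At an unadjusted p under 0.05, 48 were higher and 0 were lower, against 13.2% and 13.7% of all genes tested. With DESeq2 35 were higher (4.19% of all genes tested) and 0 were lower, for which the share was not counted. Over all genes tested, 6.49% were higher by the same rule and 7.27% were lower, against 69.0% of the members. The changes were small: the 40 genes rose by 7.90% to 36.3%, with a median of 18.8%. Over all 58 the median log2 fold change was 0.22, whereas over all genes tested it was 0.00, and 56 of 58 were positive, against 50.6% of all genes tested.

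**Figure D1:**
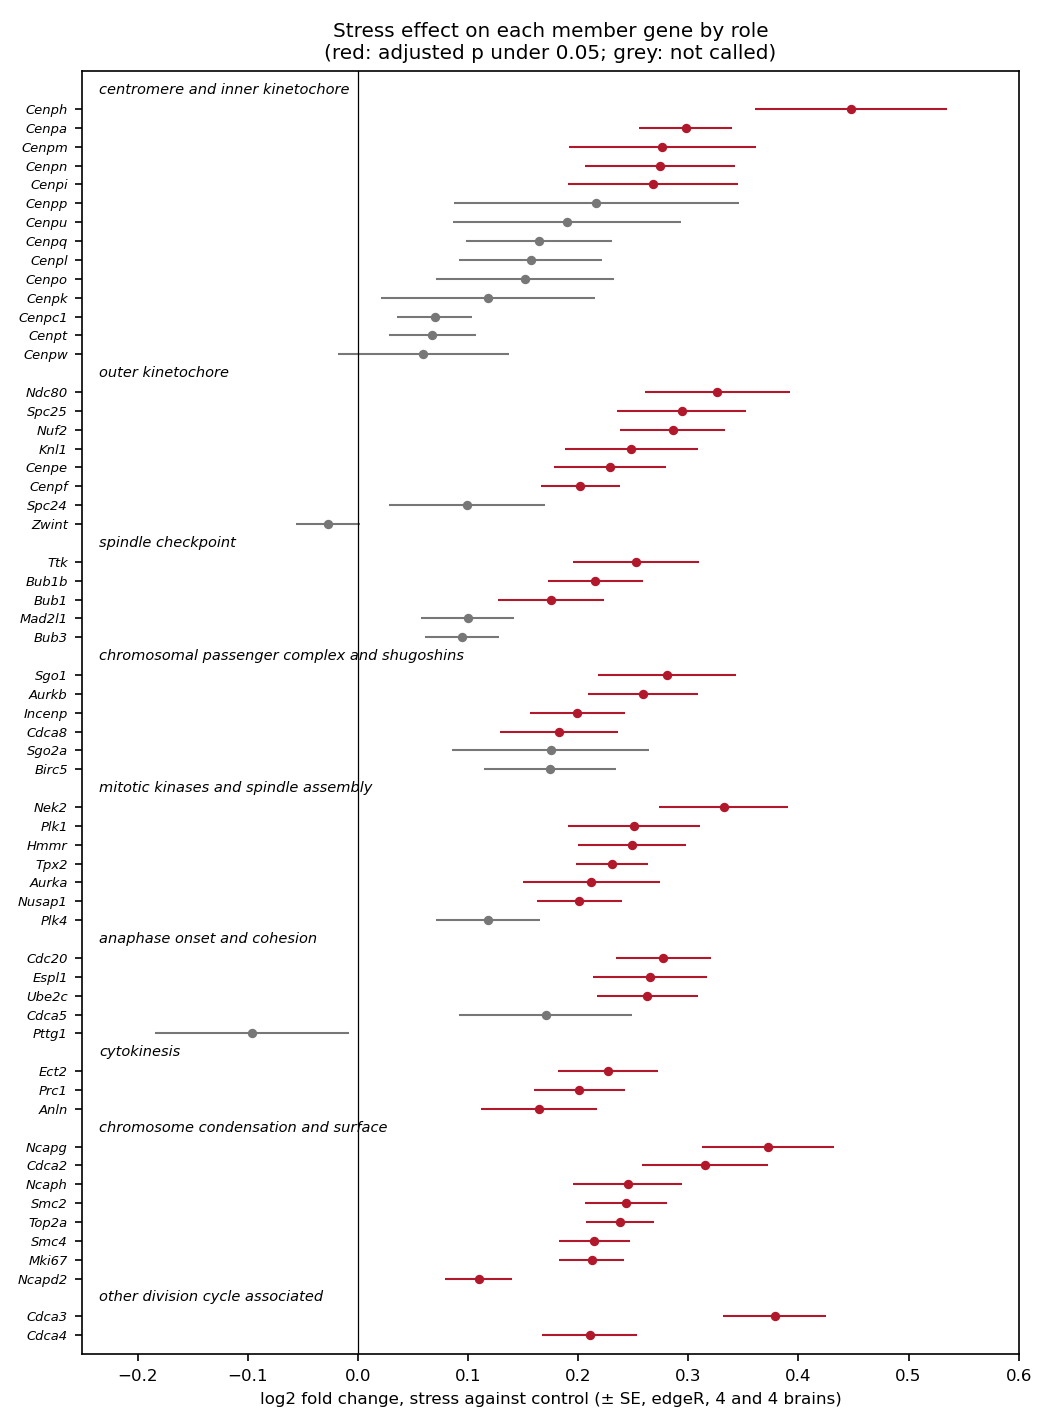
Log2 fold change of each of the 58 genes, stress against control (x axis, ± SE from edgeR, 4 and 4 brains), grouped by role; red points passed an adjusted p of 0.05 and grey points did not. All 40 red points lie right of 0, and only Zwint and Pttg1 lie left of it.

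The shift was seen in each stressed brain. For each gene CPM (counts scaled so that every library has the same TMM-adjusted total) was set against the gene's control mean. The median over the 58 genes was 98.7% in control F36, 97.6% in F37, 103.5% in M30 and 100.5% in M31. It was 114.5% in stress F34, 110.2% in F35, 117.2% in M28 and 123.5% in M29. Every stressed brain thus stood above every control brain on this median, and M29 was the highest. In M28 and in M29, 57 of the 58 genes lay above their control mean, in F34 52 and in F35 53, whereas in the control brains between 19 and 47 did. For 34 genes, all 4 stressed brains lay above all 4 control brains, against 8.20% of all genes tested, and for 0 genes all lay below, against 8.22%. Among the 40 genes that rose, the groups were apart for 32 and overlapped for 8. Removing each brain in turn left between 35 and 40 genes called higher, beside 4.08% to 5.84% of all genes tested. In all 8 of these fits 33 genes were called, for which the share over all genes tested was not counted. The 7 that lost their call in at least 1 fit were Cenpi, Cenpm, Bub1, Cdca8, Aurka, Anln and Ncapd2.

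**Figure D2:**
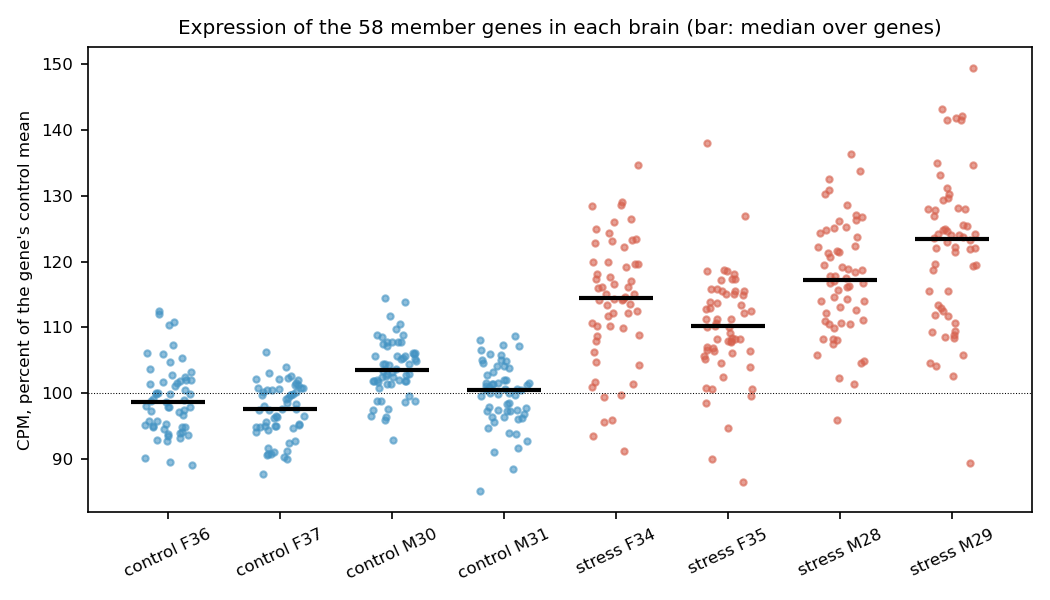
CPM of each of the 58 genes in each brain as percent of the gene's control mean (y axis); each point is 1 gene, the bar is the median over the genes, blue are control and red are stressed brains. The medians run from 97.6% to 103.5% in the control brains and from 110.2% to 123.5% in the stressed brains.

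Of the 14 genes of the centromere and inner kinetochore, 5 rose, and 14 were positive, with a median log2 fold change of 0.18. From here on, values in single brains are CPM in the order F36, F37, M30, M31 for control and F34, F35, M28, M29 for stress. Cenpa encodes the histone H3 variant that marks the centromere. Its level was 29.1, 30.4, 30.5 and 29 in control and 37.5, 34.5, 37.1 and 37.1 in stress, with no overlap between the groups (log2 fold change 0.30 ± 0.04 SE, adjusted p = 3.95e-05 by edgeR). Cenph (ENSMUSG00000045273.8, chr13:100759674-100775899 on mm10) encodes a subunit of the constitutive centromere network and had the highest fold change of all 58. It was read at 5.86, 5.96, 6.38 and 4.92 in control and at 7.79, 7.98, 7.56 and 8.19 in stress, a log2 fold change of 0.45 ± 0.09 SE (edgeR adjusted p = 0.00101). All control values were under all stress values, although Cenph rested on only 140 to 237 counts per brain. Cenpi, Cenpm and Cenpn also rose, each by a log2 fold change of 0.27 or 0.28. Cenpw, a histone-fold subunit that pairs with CENP-T, had the largest p of this layer, at 8.48, 9.20, 9.69 and 8.68 in control and 8.62, 8.53, 11.01 and 9.43 in stress (log2 fold change 0.06 ± 0.08 SE, edgeR adjusted p = 0.681). Its groups overlapped, and male M28 alone stood above all others. Cenpc1 and Cenpt, which bridge the inner and outer layers, were not called either, with log2 fold changes of 0.07 each. The 18 genes that did not pass were read at a median of 10.5 CPM in control, against 24.1 for the 40 that did, with median standard errors of 0.07 and 0.05. Of these 18, 8 had an unadjusted p under 0.05.

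In the outer kinetochore, 6 of 8 genes rose and the groups were apart for these 6. Ndc80, Nuf2 and Spc25, which with Spc24 form the microtubule-binding Ndc80 complex, rose by log2 fold changes of 0.33, 0.29 and 0.29, and Spc24 did not pass the test (0.10 ± 0.07 SE). Nuf2 was at 19.8, 19.8, 22.9 and 20.8 in control and at 24.4, 24.4, 25.5 and 27.1 in stress (edgeR adjusted p = 0.000223). The lowest stressed brain was above the highest control brain, M30. Cenpf encodes a large protein of the fibrous corona, and its level was 53.3, 54.7, 60.9 and 60.7 in control and 65.8, 61.9, 65.6 and 70.6 in stress (log2 fold change 0.20 ± 0.04 SE, edgeR adjusted p = 0.000405). Knl1, the scaffold for the checkpoint proteins, and Cenpe, a kinesin that moves chromosomes to the spindle equator, rose by 0.25 and 0.23. Zwint (ENSMUSG00000019923.14, chr10:72654845-72674964) encodes the partner of Knl1 and had the highest level per length of all 58, at 76.9 CPM per kb of exon in control against a median of 4.20. It read 341, 344, 336 and 343 in control and 319, 343, 327 and 349.8 in stress, with overlapping groups (log2 fold change -0.03 ± 0.03 SE, edgeR adjusted p = 0.612). Zwint was one of 2 genes with a negative fold change, on 8694 to 10125 counts per brain.

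Within the spindle checkpoint, 3 of 5 genes rose. Bub1b, whose product BubR1 is part of the mitotic checkpoint complex, was at 35.1, 39.7, 40.7 and 42.3 in control and 46.4, 43.6, 45.9 and 47.2 in stress (log2 fold change 0.22 ± 0.04 SE, edgeR adjusted p = 0.00119). Ttk, the kinase Mps1 that starts checkpoint signalling, was at 13.2, 13.2, 13.4 and 12.97 in control and at 15.3, 15.49, 15.7 and 16.4 in stress (0.25 ± 0.06 SE, edgeR adjusted p = 0.00359). The control values of Ttk lay close together and the stressed brains lay clear of them. Bub1 rose as well, by a log2 fold change of 0.18. Mad2l1, whose product binds and holds Cdc20, was at 28.5, 28.03, 29.8 and 31.1 in control and 29.8, 30.5, 31.5 and 33.9 in stress (0.10 ± 0.04 SE, edgeR adjusted p = 0.125). Bub3, the common partner of Bub1 and BubR1, was not called (0.09 ± 0.03 SE).

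Among the chromosomal passenger complex and the shugoshins, which correct wrong attachments and guard centromeric cohesion, 4 of 6 rose, while the groups were apart for 1. That gene was Aurkb, the kinase of the complex, at 19.7, 20.7, 20.9 and 20.9 in control and at 25.3, 22.3, 24.99 and 25.8 in stress (log2 fold change 0.26 ± 0.05 SE, edgeR adjusted p = 0.000855). Incenp, its scaffold, read 40.4, 39.9, 44.1 and 39.3 in control and 46.8, 43.6, 46.7 and 50.8 in stress (0.20 ± 0.04 SE, edgeR adjusted p = 0.00255). Control M30 stood above stress F35 for Incenp, so the groups overlapped. Sgo1 and Cdca8, which encodes borealin, rose by 0.28 and 0.18, and Birc5, which encodes survivin, lay just past the threshold at an edgeR adjusted p of 0.0511. Sgo2a had the lowest level per length of all 58, at 0.947 CPM per kb in control, and shares 35.04% of its exon length with Kctd18. It was at 7.35, 6.13, 6.17 and 6.89 in control and 8.18, 6.68, 7.18 and 7.88 in stress (0.18 ± 0.09 SE, edgeR adjusted p = 0.21).

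The mitotic kinases and spindle assembly factors rose in 6 of 7 cases. Tpx2, which activates Aurora A on spindle microtubules, was at 55.8, 55.1, 59.6 and 57.7 in control and at 63.7, 64.3, 69.3 and 70.5 in stress (log2 fold change 0.23 ± 0.03 SE, edgeR adjusted p = 3.95e-05). Nek2, a kinase that parts the centrosomes, was at 12.1, 11.6, 13.8 and 13.2 in control and at 14.7, 14.6, 16.5 and 17.96 in stress (0.33 ± 0.06 SE, edgeR adjusted p = 0.00038). For both genes the groups were apart, and the 2 stressed males were the highest. Plk1 and Aurka, the kinases of mitotic entry and of the spindle poles, rose by 0.25 and 0.21, and Hmmr and Nusap1, which bind spindle microtubules, by 0.25 and 0.20. Plk4, the kinase of centriole duplication, was at 21.7, 23.7, 23.9 and 23.5 in control and 25.2, 25.8, 24.3 and 25.4 in stress. Its groups did not overlap, yet the difference did not pass the test (0.12 ± 0.05 SE, edgeR adjusted p = 0.1).

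Anaphase onset and cohesion gave 3 rises in 5 genes. Cdc20 activates the anaphase-promoting complex, and its level was 28.5, 27.1, 28.7 and 28.4 in control and 33.8, 32.0, 34.2 and 36.5 in stress (log2 fold change 0.28 ± 0.04 SE, edgeR adjusted p = 0.000108). Ube2c, the ubiquitin-conjugating enzyme of that complex, read 31.5, 33.1, 35.6 and 32.7 in control and 38.2, 35.2, 41.3 and 44.7 in stress (0.26 ± 0.05 SE, edgeR adjusted p = 0.00035). Espl1, the protease separase, rose by 0.27. Its inhibitor securin, Pttg1 (ENSMUSG00000020415.16, chr11:43420250-43426251), had the lowest fold change of all 58. Pttg1 was at 6.48, 5.68, 6.35 and 6.71 in control and at 6.05, 5.45, 6.45 and 5.63 in stress, with overlapping groups on 138 to 191 counts (-0.10 ± 0.09 SE, edgeR adjusted p = 0.538). Cdca5, which encodes the cohesin protector sororin, was not called (0.17 ± 0.08 SE).

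All 3 cytokinesis genes rose, and their groups were apart. Prc1 bundles the midzone microtubules, and was at 37.8, 42.0, 42.5 and 39.2 in control and at 46.1, 45.3, 46.0 and 48.2 in stress (log2 fold change 0.20 ± 0.04 SE, edgeR adjusted p = 0.00166). Ect2, the exchange factor that switches on RhoA at the furrow, was at 29.1, 31.1, 33.4 and 30.3 in control and 33.7, 35.3, 36.5 and 39.7 in stress (0.23 ± 0.05 SE, edgeR adjusted p = 0.00121). The gap between the groups was narrow for Ect2, between control M30 and stress F34. Anln, a scaffold of the contractile ring, was at 17.1, 18.4, 19.6 and 17.7 in control and 20.1, 19.7, 21.5 and 20.4 in stress (0.16 ± 0.05 SE, edgeR adjusted p = 0.0374), and was called in only 2 of the 8 fits that left out a brain.

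In chromosome condensation 8 of 8 genes rose, and the groups were apart for 6. Top2a, which untangles sister DNA, had 164, 165, 177 and 171 in control and 198, 186, 197 and 216 in stress (log2 fold change 0.24 ± 0.03 SE, edgeR adjusted p = 1.49e-05). Mki67, which encodes the Ki-67 coat of mitotic chromosomes, had 144, 143, 159.7 and 159 in control and 172, 163, 176 and 190.0 in stress (0.21 ± 0.03 SE, edgeR adjusted p = 3.25e-05). In both genes the control males were above the control females and still under every stressed brain. The condensin core and condensin I genes Smc2, Smc4, Ncapg and Ncaph rose by 0.24, 0.21, 0.37 and 0.25, and Cdca2, which encodes the phosphatase adaptor Repo-Man, by 0.32. The smallest rise was that of the condensin I subunit Ncapd2, at 154, 146, 154 and 152 in control and 167, 153, 168 and 168 in stress (0.11 ± 0.03 SE, edgeR adjusted p = 0.0157). Stress F35 lay among the control brains for Ncapd2, and 5 of the 8 fits without a brain called it. Of the remaining pair, Cdca3, which serves a ubiquitin ligase at mitotic entry, was at 27.6, 27.4, 28.04 and 26.9 in control and at 33.6, 32.6, 37.5 and 39.4 in stress. Its log2 fold change of 0.38 ± 0.05 SE had the smallest edgeR adjusted p of the 58, 8.4e-06. Cdca4, a nuclear protein linked to E2F activity, was at 35.5, 34.7, 33.6 and 35.5 in control and 41.5, 38.0, 39.1 and 42.5 in stress (0.21 ± 0.04 SE, edgeR adjusted p = 0.00151). Both were clear of their control values in all 4 stressed brains.

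Counting can blur genes whose exons are shared with a neighbour. Over 10% of the exon length was shared in 7 of the 58: Cenpo, Cenpp, Cenpu, Sgo2a, Ube2c, Prc1 and Ncapg. Of these 7, 3 rose, and of the other 51, 37 rose, with median log2 fold changes of 0.20 and 0.22.

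To ask whether the response differed by sex, females and males were compared within 1 model of 4 groups. Within females 17 genes were called higher (1.66% of all genes tested) and within males 30 (2.96%). In both sexes 14 were called, for which the share over all genes tested was not counted. The median log2 fold change was 0.20 in females and 0.24 in males, and 54 and 56 genes were positive. The interaction of sex and stress, which tests that difference, was called for 0 of the 58 with edgeR (0.0056% of all genes tested) and for 0 with DESeq2 (0.0112%), each with 2 brains per sex and group. With edgeR 4 of the 58 had an unadjusted p under 0.05 (6.31% of all genes tested), 3 of them larger in males (3.33%). DESeq2 gave 1 at that threshold, for which the share over all genes tested was not counted. Aurka had log2 fold changes of 0.06 ± 0.08 SE in females and 0.36 ± 0.08 SE in males, with an edgeR adjusted p of 0.668 for the difference. Bub3 and Cdca3 likewise had larger values in males, 0.18 against 0.01 and 0.48 against 0.27. Knl1 had the larger value in females, 0.40 ± 0.08 SE against 0.10 ± 0.08 SE (edgeR adjusted p = 0.648).

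**Figure D3:**
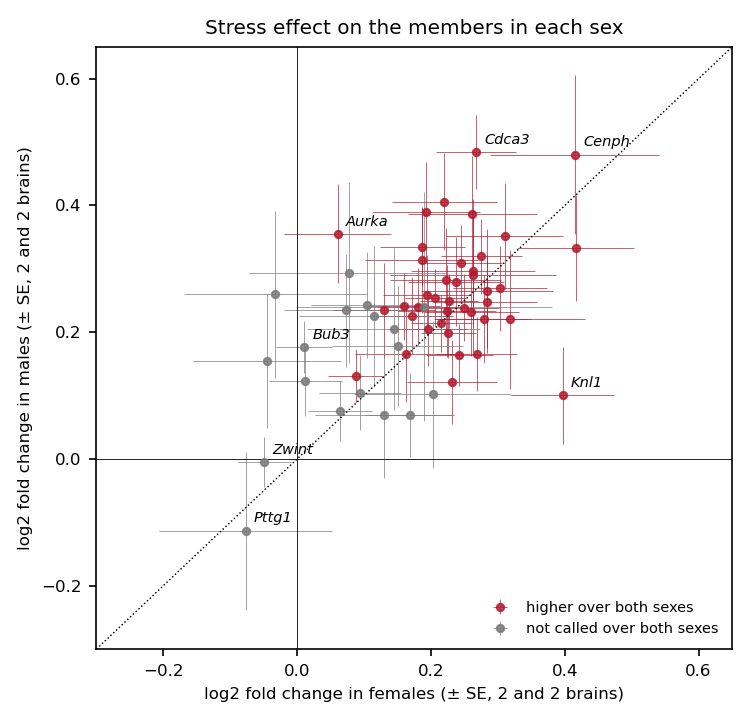
Log2 fold change, stress against control, in females (x axis) and in males (y axis), each ± SE over 2 and 2 brains; red genes were called higher over both sexes, and the dotted line marks equal effects. Most points lie right of 0 and above 0 in both sexes, Knl1 lies below the line, and Aurka, Bub3 and Cdca3 lie above it.

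Apart from stress, the members tended to be read higher in males. Across both groups, 53 of 58 had a positive log2 difference of males against females, with a median of 0.08 on the log2 scale, against 0.00 over all genes tested. With edgeR, 0 of the 58 passed the adjusted threshold (0.0896% of all genes tested), whereas 17 had an unadjusted p under 0.05 (5.91%), all 17 higher in males (2.68%). DESeq2 called 1, Mki67, and 12 had an unadjusted p under 0.05 with it. The shares over all genes tested were not counted for these DESeq2 results, nor for the sign of the difference. For Mki67 the difference was 0.14 ± 0.03 SE (edgeR adjusted p = 0.0722), and for Nek2 and Sgo1 it was 0.21 ± 0.06 SE each. Of the 58 genes, 1 lies on the X chromosome, Cenpi, and 0 on the Y chromosome.

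The promoters printed above were picked examples, so the words were also counted over the members as a whole. A RefSeq window of 300 bases, 250 before to 50 after the start site, was found for 52 of the 58 genes, and Aurkb, Spc24, Incenp, Cdca2, Smc4 and Tpx2 had none. Each window was searched on both strands for the CHR words (either TTTGAA or the form TTCGAA), for the CCAAT box, and for 3 core words that E2F factors bind. These were TTCGCGC, then its variant TTGGCGC, and last the word TTCCCGC. Matches were allowed to overlap. A CHR word stood in 28 of 35 genes that rose (80%) and in 4 of 17 that did not pass (23.5%). The share was 16.5% over all genes tested that had a window, 20.3% over the other genes called higher and 14.6% over the genes called lower. A CCAAT box stood in 82.9% of the members that rose, in 52.9% of those that did not pass and in 42.6% of all genes tested. Both words were found together in 71.4%, 17.6% and 6.92% of these sets. For the E2F core the order was turned, with 25.7% of the members that rose, 41.2% of those that did not pass and 15.9% of all genes tested. These shares describe letters in a window, and no test of the difference was made.

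Of 36 CHR words in the members that rose, 26 lay within 50 bases of the start site, where a word met in 2 overlapping windows of a gene was counted once, from the nearer start site. The genes that did not pass but held a CHR were Cenpl, Cenpw, Bub3 and Cdca5. Those that rose without one were Cenph, Cenpi, Nuf2, Cenpe, Nek2, Nusap1 and Ncaph. A CHR preceded by GCGG and a spacer of 4 bases, the fused form known as CDE-CHR, was found in 3 members, Cenpf, Bub1 and Cdca5, which is 5.77% of the 52 against 0.219% of all genes tested. The 32 genes with a CHR had a median log2 fold change of 0.24, and the 20 without had 0.17, and the ranges overlapped (0.06 to 0.38 and -0.10 to 0.45).

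**Figure D4:**
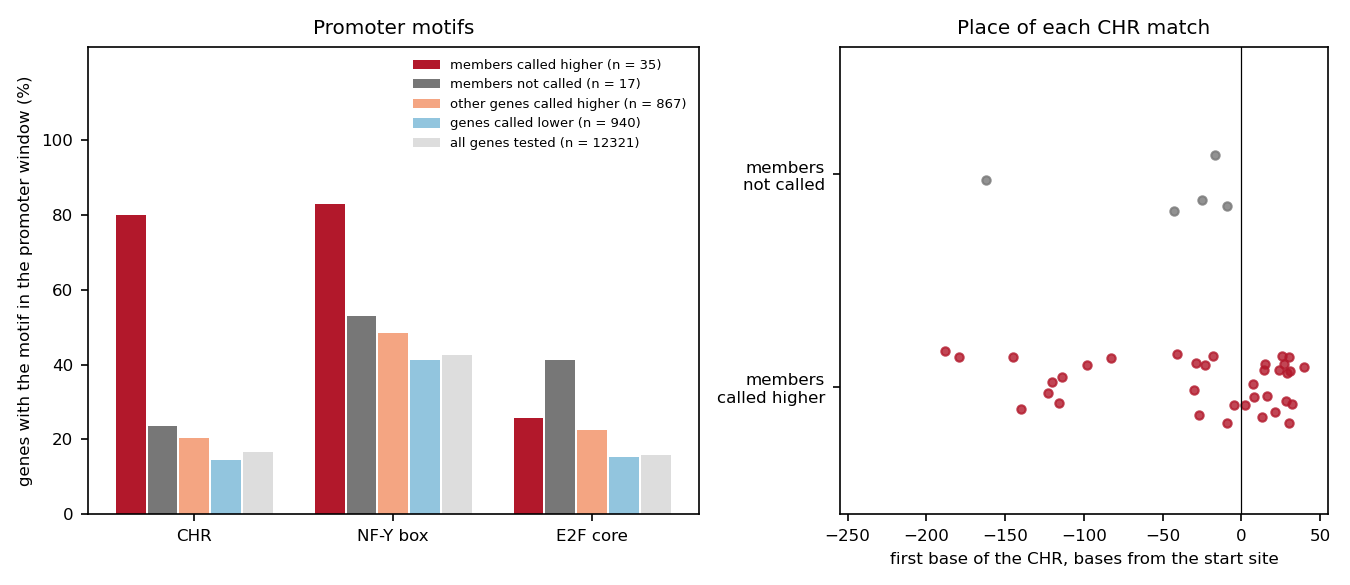
Left, percent of genes with a CHR word, a CCAAT box (bound by NF-Y) or an E2F core in the promoter window (y axis) for 5 sets of genes, with their n. Right, distance in bases of each CHR word from the start site (x axis) for members that rose and members that did not pass. The CHR bar is 80% for the members that rose and 16.5% for all genes tested, and 26 of the 36 red points lie within 50 bases of the start site.

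Other genes of the same machinery were read from 6 further lists. The shares over all genes tested, for these and for the cell type lists below, were 6.49% higher and 7.27% lower. At an unadjusted p under 0.05 they were 13.2% and 13.7%, and DESeq2 called 4.19% higher. The share that DESeq2 called lower was not counted, nor was the share called in every fit that left out a brain. Of 22 further kinetochore and centromere genes, 6 rose and 0 fell, with 8 and 0 at an unadjusted p under 0.05 and 3 and 0 by DESeq2. Of 16 condensin II and cohesin genes, 3 rose, Smc1a, Rad21 and Esco2, and of 15 subunits and activators of the anaphase-promoting complex 2 rose, Anapc1 and Cdc26. DESeq2 called 3 of the first list and 1 of the second, Anapc1, the latter near the share over all genes tested. Each of Rad21, Anapc1 and Cdc26 was called in only 3 of the 8 fits that left out a brain, and Smc1a in 7. Of the 6 further kinetochore and centromere genes that rose, 2 were called in all 8. The median log2 fold changes of both lists were 0.06, against 0.22 for the 58 members.

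Genes of the spindle, centrosome and midbody rose in 16 of 31 cases (13 by DESeq2), led by Tacc3, which steadies spindle microtubules (log2 fold change 0.34 ± 0.04 SE, edgeR adjusted p = 1.49e-05). One of them fell: Cit, which encodes the midbody kinase citron and is also used by neurons, was at 33.6, 31.4, 32.4 and 32.9 in control and 30.9, 32.1, 27.7 and 27.3 in stress (-0.15 ± 0.05 SE, edgeR adjusted p = 0.036). Its groups overlapped, and DESeq2 called 0 of this list lower. Among 15 regulators that bind G2/M promoters, 5 rose: Foxm1, Mybl2, Lin9, Rbl1 and Nfyb. DESeq2 called 4 of them, all but Lin9, and 2 were called in every fit that left out a brain. Lin9 was called in only 1 of these 8 fits, Foxm1 in 5 and Mybl2 in 7. Lin9 is a subunit of the MuvB core, Mybl2 and Foxm1 join that core on the way to mitosis, whereas Rbl1 is a pocket protein of the repressing DREAM form. S-phase genes rose in 11 of 20 cases with either tool, the Mcm genes Mcm2 to Mcm7 among them, and Rrm2, the ribonucleotide reductase subunit, had a log2 fold change of 0.29 ± 0.03 SE (edgeR adjusted p = 4.7e-06).

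Markers of cell types that a whole brain holds were read beside these results, and their part in the result was not tested. Intermediate progenitor markers moved with the members: 7 of 8 rose (4 by DESeq2, and 3 in every fit that left out a brain), and their summed level was 398.5 to 434.5 CPM in control and 442.6 to 498.5 in stress. Eomes, the Tbr2 factor of the subventricular zone, was at 90.8, 89.9, 92.8 and 90.9 in control and 109, 102, 109.9 and 113 in stress (log2 fold change 0.25 ± 0.03 SE, edgeR adjusted p = 8.4e-06). Of 11 radial glia markers 5 rose (3 by DESeq2, and 2 in every fit that left out a brain), while 4 had a negative log2 fold change. Pax6 rose by 0.14 ± 0.03 SE, and the summed level of the list overlapped, at 1686 to 1799 CPM and 1724 to 1864.

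Neuron markers were high in every brain, as the label of the tissue asks, at 9326 to 9536 CPM in control and 9115 to 9532 in stress. Of 13, 6 fell (4 by DESeq2), Gap43, a growth cone protein, by 0.12 on the log2 scale, and 1 rose, Ina. Only 2 of these neuron marker calls held in every fit that left out a brain. Endothelial markers fell in 4 of 7 cases (2 by DESeq2, and the same number in every fit that left out a brain), at 149.5 to 167 CPM in control and 133 to 142 in stress, and Flt1, a receptor for VEGF, fell by 0.41 on the log2 scale. Oligodendrocyte precursor markers fell in 2 of 5 cases, also by DESeq2 (116.6 to 129 CPM and 104 to 109), Olig1 by 0.26 on the log2 scale.

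Among the remaining lists, the meningeal and choroid plexus markers varied with single brains. The microglia list gave no calls, and the erythroid list gave calls in both directions. Of 8 microglia markers, 0 were called in either direction and 0 had an unadjusted p under 0.05, with 0 by DESeq2 (37.6 to 40.6 CPM and 35.1 to 40.4), and P2ry12 had a log2 fold change of -0.18 ± 0.10 SE. Meningeal markers were called higher in 3 of 5 cases with groups that overlapped (15.9 to 28.8 CPM and 20.5 to 62.3), Col3a1 being highest in stress M28. Choroid plexus markers were called in 2 of 5 (2.43 to 10.5 CPM and 2.59 to 33.5), with Ttr at 29.95 CPM in stress F34 and 6.95 or less in the other 7 brains. DESeq2 called 0 of these meningeal and choroid plexus genes. Of 8 globin and other erythroid genes 2 rose and 1 fell, with summed levels of 364.3 to 411.8 CPM and 370.2 to 384.5, Hba-x rising by 1.09 and Hbb-bs falling by 0.14 on the log2 scale. DESeq2 also called 2 of them higher and 1 lower. The groups were apart for 2, and 2 of the calls held in every fit that left out a brain.

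**Figure D5:**
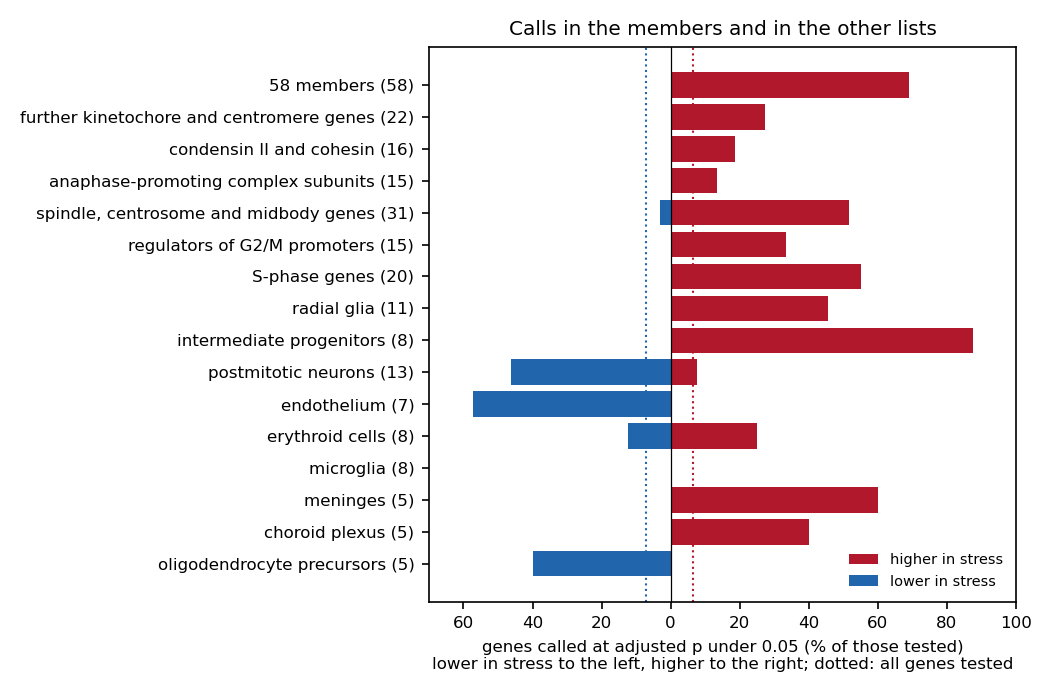
Percent of tested genes of each list that were called (x axis), higher in stress to the right in red and lower to the left in blue; numbers of genes tested are in brackets and dotted lines are the shares over all genes tested. The 58 members reach 69.0% to the right, the intermediate progenitor list is longer, and the neuron, endothelial and oligodendrocyte precursor lists lean left.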

How the data were processed

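The authors sequenced poly(A)-selected RNA as paired reads, trimmed them with Trim Galore, mapped them on mm10 (TopHat2 2.1.1) and assigned them to GENCODE genes (featureCounts 1.6.3). What was deposited is 1 table of raw counts for each brain. Counting options for strand, multi-mapped reads or overlapping genes are not given, and the defaults drop pairs that overlap several genes. The 8 brains were grouped by the labels. Symbols matched 54723 of 54752 identifiers. Genes were kept by filterByExpr (minimum count 10, by group), scaled by TMM and tested in R 4.3.3 with edgeR 4.0.16 (glmQLFit, glmQLFTest, sex and condition as terms), with Benjamini-Hochberg adjustment over 17865 genes. The study's model also held batch, which the labels do not name for these libraries, so it was not fitted. Alternatives were DESeq2 1.42.0, other size factors, no filter, no sex term, single sexes and leaving out each brain.

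In simulated counts with 200 changed genes among 17688, edgeR recovered 63% of changes of 0.25 and 89% of 0.5 (log2), with 15 false calls, and DESeq2 56% and 82%, with 3. These counts were drawn with no litter or sex effect, so the false calls do not cover differences between litters. With 4 brains against 4, an exact two-sided permutation test cannot go below 0.0286. Totals of 25320109 to 29105710 counts set the precision of each value. Promoter windows came from RefSeq on GRCm38.p6.

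The members, the lists and the motifs were chosen with earlier results of these data known. Values in each brain are given, per role, for the pair of genes with the smallest p and the gene with the largest p, for genes with negative fold changes, and for the extremes of fold change and of level per length. From each list the gene with the smallest p and genes called against the list's direction are named. For 1 list the gene with the smallest p is not reported here. Other genes are named to account for the members.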

Additional observations from a re-analysis of the deposited data

Results flagged for a closer look

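Each gene's 4 values in each group were examined for a single brain that stood apart from the other 3 by Dixon's ratio (the gap over the range, at its 95% critical value), and 7 of 116 groups were marked, close to the 1 in 20 that chance marks. Stress F35 was low for Cenpa (34.5 CPM against 37.1 to 37.5, ratio 0.881), for Cenpp (2.25 against 3.11 to 3.14, ratio 0.968) and for Ncapd2 (152.6 against 167 to 168, ratio 0.934). Stress M29 was high for Spc25 (29.3 CPM against 23.6 to 24.5, ratio 0.838) and low for Bub1 (25.6 against 27.0 to 27.2, ratio 0.873). Control F36 was low for Aurkb (19.7 CPM against 20.7 to 20.9, ratio 0.839) and for Plk4 (21.7 against 23.5 to 23.9, ratio 0.839).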

How the results depend on the processing

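The number of genes called higher (40), the number called lower (0) and the median log2 fold change (0.22) kept their side under RLE and upper-quartile scaling, without the filter, without the sex term, in males alone and by DESeq2, which called 35 higher and did not call Cenpi, Cenpm, Cdca8, Aurka and Anln. Within females the count fell to 17, and within males it was 30. Both sexes had 2 brains per group, fewer than in the main fit by construction. Leaving out each brain gave 35 to 40 genes higher, 0 lower, a median of 0.20 to 0.23 and 0 genes with an interaction. Reversed signs were found in genes that were not called: Cenpk within females (-0.033), and Cenpw within females (-0.044) and without stress M28 (-0.0098), where leaving out each brain gave Cenpw values of -0.0098 to 0.10. The cause was not tested. No paired analysis was possible because the groups share no animal numbers. Precision was lowest for genes under about 10 CPM, such as Cenpp, at 57 to 90 counts per brain.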
